A study of Mus musculus with 2 samples.

Results

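Interferon-stimulated genes are the genes that cells switch on when they sense interferon, and 33 of them were followed here through the single cells of healing mouse skin. Members were taken by symbol, and 32 of the 33 had a row among the 31053 genes of the deposited matrices, so that *Mx2*, which has no row, was not analysed here. The study asked what the loss of CD206-positive macrophages, which express *Mrc1*, does to a wound. Cells came from excisional wounds of the back skin on day 5. The labels give both groups as *Mrc1-DTR* mice on the C57BL/6 strain, 7-9 weeks old, in which the *Mrc1* promoter drives the diphtheria toxin receptor, with PBS given to one group and Diphtheria toxin (DTX) to the other. The study's methods instead describe the control animals as wild type mice that also received toxin, so the control cannot be told with certainty, and the cells were called the PBS library and the DTX library after the labels. The barcode totals that the study's text gives for the depleted and the control wounds are those of the libraries labelled PBS and DTX, in that order, whereas its account of the cell makeup goes with the labels. *Mrc1* in macrophage-like cells does not settle which holds, and an exchange of the labels would turn the sign of every ratio below. The methods state that live cells were sorted, without selecting a type, from 3 male mice a group, with technical but no biological replicates, and do not say how these enter the 1 library a group analysed here. With 1 library per group no test was possible, no p-value is given, and every interval below is a 95% interval for counting error only.

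Interferons fall into type I (the alpha and beta interferons), type II (interferon gamma) and type III (the lambda interferons). Type I and III receptors act through complexes with STAT2 and IRF9, which bind interferon-stimulated response elements (ISREs), whereas interferon gamma acts mainly through gamma-activated sites (GAS). In skin, injured keratinocytes, macrophages and dendritic cells can make type I interferon, natural killer (NK) and T cells make interferon gamma, and the proteins of the target genes block viral replication, sense nucleic acids or attract lymphocytes.

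The members lie on 12 chromosomes in the GENCODE annotation of GRCm38. *Ifit2*, *Ifit3* and *Ifit1* lie close together on the plus strand of chromosome 19 (from 34550694 to 34650009), 7 members lie on chromosome 5, among them *Cxcl9* (92321347-92328079) and *Cxcl10* (92346638-92348889), and *Gbp5*, *Gbp3* and *Gbp2* lie close together on chromosome 3. RefSeq promoter sequences (GRCm38.p6, 250 bases before to 50 bases after the start) were at hand for 25 of the 33 members. The ISRE-like run GAAANNGAAA, sought on both strands, was found in 15 of these 25 (60%), and in 1079 of 27025 genes overall (3.99%). The GAS-like run TTCNNNGAA, which reads the same on both strands, was found in 6 of 25 (24%) and in 2582 of all genes (9.55%). A run is a match of letters and was not shown here to be bound. The windows below are upstream stretches of the members whose levels carry the results, 5′ to 3′ on the strand of the gene with positions counted from the start of transcription, and the capitals mark the ISRE-like runs (on either strand) and the GAS-like runs.
*Ifit1* (chr19:34640760-34640838, plus strand, -129 to -51): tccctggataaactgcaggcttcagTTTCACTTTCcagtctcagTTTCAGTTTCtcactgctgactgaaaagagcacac
*Ifit3* (chr19:34583348-34583441, plus strand, -181 to -88): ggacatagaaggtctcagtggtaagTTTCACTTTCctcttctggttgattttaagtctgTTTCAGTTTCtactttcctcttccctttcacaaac
*Isg15* (chr4:156200850-156200921, minus strand, -103 to -32): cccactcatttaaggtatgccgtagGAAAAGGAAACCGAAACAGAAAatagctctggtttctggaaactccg
*Rsad2* (chr12:26456538-26456597, minus strand, -145 to -86): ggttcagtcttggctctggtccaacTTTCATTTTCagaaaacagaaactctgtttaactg
*Oas1a* (chr5:120907526-120907648, minus strand, -123 to -1): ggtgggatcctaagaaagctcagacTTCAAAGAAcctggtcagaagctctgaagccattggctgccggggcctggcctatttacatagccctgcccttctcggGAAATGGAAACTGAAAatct
*Cxcl10* (chr5:92349068-92349127, minus strand, -238 to -179): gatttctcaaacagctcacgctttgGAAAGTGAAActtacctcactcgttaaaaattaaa
*Ifit2* (chr19:34550444-34550486, plus strand, -250 to -208): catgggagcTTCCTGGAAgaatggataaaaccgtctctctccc
*Irf1* (chr11:53769899-53769957, plus strand, -115 to -57): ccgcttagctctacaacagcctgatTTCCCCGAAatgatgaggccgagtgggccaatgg

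*Ifit1* and *Ifit3* each carried 2 separate ISRE-like runs, *Isg15* carried 3 that overlap, and *Oas1a* carried both kinds of run. *Ifit2* and *Irf1* carried a GAS-like run and no ISRE-like run. The window of *Cxcl9*, the member with the largest difference between the libraries in macrophage-like cells, held neither.

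Cells with fewer than 500 detected genes or more than 6% mitochondrial UMIs were removed (a UMI, or unique molecular identifier, stands for 1 captured RNA molecule). This left 8326 of 12058 barcodes in the PBS library and 7188 of 11031 in the DTX library, with medians of 9822.5 and 7350 UMIs per barcode. Between the libraries 20 barcodes were shared. Cells were clustered without the members and without the genes of fixed lists of the interferon pathway, so that the clusters were not built on these. Genes outside the lists, such as *Ifi203* and *Slfn4*, could still be used. The 8 classes with at least 50 cells in each library were compared. Levels are in CPM, the UMIs of a gene scaled to the same total of UMIs in every class and library. Differences are log2 ratios of the DTX over the PBS library with 1 CPM added to both, and the interval of a ratio, in parentheses, was computed with nothing added. Where 2 values stand together, the PBS library comes first. A member was compared in a class where it had at least 50 UMIs over both libraries. Counts of members above or below 0, or with an interval off 0, were not made over all genes. Such counts describe the members and do not set them apart from other genes. *Mrc1* itself was at 4022 UMIs (498 CPM) and 13727 UMIs (437 CPM) in macrophage-like cells, with a log2 ratio of -0.19 (-0.24 to -0.14), and the transcript was present in both libraries.

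Macrophage-like cells, 1670 in the PBS library and 4596 in the DTX library, held more UMIs of the members over both libraries than any other class. Their members did not move together. All 32 passed the minimum, 16 lay above 0 and 16 below, 12 had an interval wholly above 0 and 12 one wholly below, and the median log2 ratio was 0.00 beside 0.05 over all genes. None was 2-fold higher in the DTX library, where 1.67% of all 10124 genes were, and 1 was 2-fold lower, where 3.62% of all genes were. The sum of all members was at 2527 CPM (2492 to 2562) in the PBS library and 2659 CPM (2641 to 2677) in the DTX library, a log2 ratio of 0.07 (0.05 to 0.10). The flat sum and median joined a set of genes that was higher with one that was lower, as the plot of levels in macrophage-like cells shows. The 10 fibroblast markers summed to 777 and 157 CPM and the 11 epithelial markers to 553 and 168 CPM in macrophage-like cells, none of them at 0, and their part in the ratios was not tested.

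**Figure D1:**
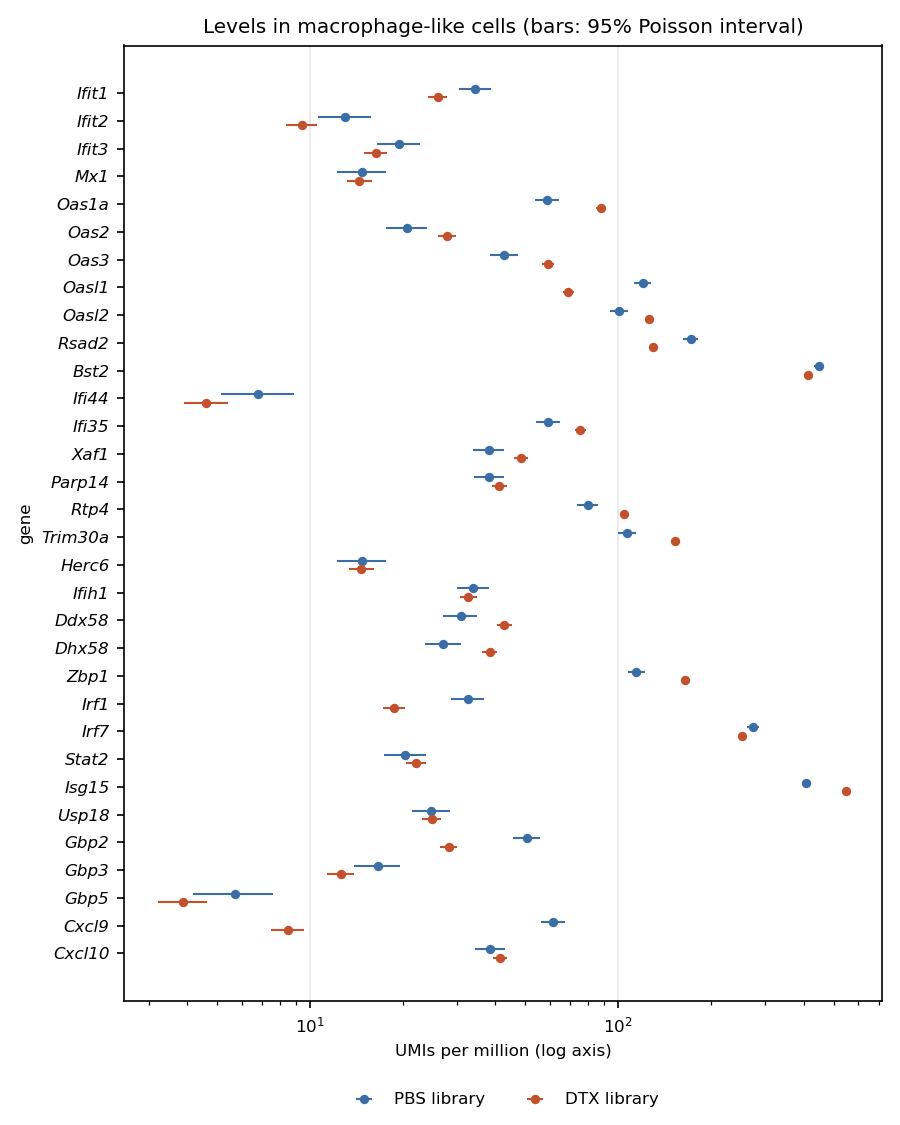
Level of each of the 32 members in macrophage-like cells, in CPM on a log axis, with a point for the PBS and the DTX library and bars for the 95% Poisson interval. *Cxcl9* has the widest gap, with 61.6 CPM in the PBS library and 8.47 CPM in the DTX library, and *Oas1a*, *Zbp1* and *Trim30a* lie higher in the DTX library.

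Of the antiviral effectors, the oligoadenylate synthetases, whose product activates RNase L, were higher in the DTX library in macrophage-like cells. *Oas1a* was at 476 and 2757 UMIs (58.9 and 87.8 CPM), a log2 ratio of 0.57 (0.43 to 0.72). *Oas3* was at 345 and 1863 UMIs (42.7 and 59.3 CPM), with a ratio of 0.46 (0.31 to 0.64). *Oas2* was at 20.7 and 27.8 CPM, with a ratio of 0.41 (0.19 to 0.67). The relatives of these enzymes parted. *Oasl2* was higher with 101 and 126 CPM and a ratio of 0.32 (0.21 to 0.43). *Oasl1*, which is known to hold back *Irf7* translation, was lower with 972 and 2164 UMIs (120.3 and 68.9 CPM) and a ratio of -0.80 (-0.91 to -0.69). The Ifit genes, whose proteins bind viral RNA, all had lower levels in the DTX library. *Ifit1* was at 278 and 815 UMIs (34.4 and 25.9 CPM), a ratio of -0.39 (-0.61 to -0.21). *Ifit2* was at 13.0 and 9.39 CPM, a ratio of -0.43 (-0.79 to -0.13), and *Ifit3* at 19.4 and 16.4 CPM, a ratio of -0.23 (-0.51 to 0.02) whose interval reached 0. *Rsad2*, which encodes viperin, an enzyme that makes a chain-terminating nucleotide, was at 1389 and 4083 UMIs (172 and 130.0 CPM), a ratio of -0.40 (-0.49 to -0.31).

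The remaining effectors moved by less than 2-fold in macrophage-like cells. *Trim30a*, a ubiquitin ligase of the TRIM family, was at 866 and 4794 UMIs (107 and 153 CPM), with a ratio of 0.51 (0.41 to 0.62). *Rtp4*, a transmembrane protein that restricts some viruses, had a ratio of 0.39 (0.27 to 0.52), *Ifi35* one of 0.34 (0.21 to 0.49) and *Xaf1*, an antagonist of the apoptosis inhibitor XIAP, one of 0.34 (0.17 to 0.53), all higher in the DTX library. *Bst2*, or tetherin, which holds budding virus at the cell surface, was at 447 and 414 CPM with a ratio of -0.11 (-0.17 to -0.06), and *Ifi44* had a ratio of -0.48 (-1.02 to -0.09), both lower. The GTPase gene *Mx1* (log2 ratio -0.03, interval -0.32 to 0.28), the ubiquitin ligase gene *Herc6* (log2 ratio 0.00, interval -0.30 to 0.30) and the ADP-ribosyltransferase gene *Parp14* (log2 ratio 0.10, interval -0.08 to 0.29) had intervals that included 0.

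The sensors of foreign or displaced nucleic acids were mostly higher in macrophage-like cells of the DTX library. *Zbp1*, which binds Z-form nucleic acids and can start necroptosis, was at 926 and 5165 UMIs (115 and 164 CPM), a log2 ratio of 0.52 (0.42 to 0.62). *Ddx58*, which encodes RIG-I, was at 30.8 and 42.8 CPM with a ratio of 0.46 (0.28 to 0.67), and *Dhx58*, which encodes LGP2, was at 27.1 and 38.3 CPM with a ratio of 0.48 (0.29 to 0.71). *Ifih1*, the RNA sensor MDA5, had a ratio of -0.05 (-0.24 to 0.15), with 0 inside its interval. *Isg15*, a ubiquitin-like protein that is conjugated to other proteins, was at 3297 and 17183 UMIs (408 and 547 CPM), with a ratio of 0.42 (0.37 to 0.48). *Usp18*, the protease that removes it and dampens the type I receptor, was at 24.8 and 24.8 CPM, with a log2 ratio of 0.00 (-0.22 to 0.24).

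The 5 members that lean towards interferon gamma were all lower in macrophage-like cells of the DTX library, with a median log2 ratio of -0.76, beside -0.07 for the 14 measured members that lean towards type I interferon. Both subgroups were chosen with earlier results of these data known, so this contrast describes the lists and tests nothing. *Cxcl10* was in neither subgroup. The guanylate-binding proteins, GTPases that attack the vacuoles of intracellular microbes, had ratios of -0.82 (-1.01 to -0.67) for *Gbp2*, -0.37 (-0.69 to -0.11) for *Gbp3* and -0.45 (-1.05 to -0.03) for *Gbp5*. For *Gbp2* this rests on 408 and 885 UMIs (50.5 and 28.2 CPM). These ratios are of the pooled class, and within the 2 subclusters with the most PBS cells, described further on, those of *Gbp2*, *Gbp3* and *Gbp5* lay above 0. *Irf1*, the transcription factor that carries much of the response to interferon gamma, was at 263 and 589 UMIs (32.5 and 18.8 CPM), a ratio of -0.76 (-1.01 to -0.58). *Irf7*, which amplifies type I interferon, was at 274 and 253 CPM with a ratio of -0.12 (-0.18 to -0.05) that turned to 0.016 with a stricter limit of 4% mitochondrial UMIs, and *Stat2* was at 20.4 and 22.1 CPM, with a log2 ratio of 0.11 (-0.13 to 0.37).

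*Cxcl9*, a chemokine that draws T cells and NK cells through the receptor CXCR3, was the member that was 2-fold lower. It was at 498 and 266 UMIs (61.6 and 8.47 CPM), 7.28-fold lower, with a log2 ratio of -2.73 (-3.08 to -2.65). Few cells held it. A UMI of *Cxcl9* was found in 54 of 1670 cells (3.23%, 2.44 to 4.20) in the PBS library and in 49 of 4596 cells (1.07%, 0.790 to 1.41) in the DTX library. In the latter 1 cell carried 93 of its 266 UMIs, beside 82 of 498 in the richest cell of the PBS library. Without that cell in each library 416 and 173 UMIs remained. In NK/T-like cells, which are not a known source, a UMI was found in 2 of 236 cells (0.847%, 0.103 to 3.03) and 0 of 173 cells (which allows up to 1.73%). With so few NK/T-like cells the background is known only loosely. The DTX share in macrophage-like cells did not stand clear of it, and the intervals of the PBS shares overlap. Cells that carried many UMIs were far from this background. Macrophage-like cells had median depths of 4654 and 6702 UMIs, and NK/T-like cells of 6828 and 8454. *Cxcl10*, which binds the same receptor and lies beside *Cxcl9* on chromosome 5, did not follow it in macrophage-like cells, with 310 and 1301 UMIs (38.4 and 41.4 CPM) and a ratio of 0.11 (-0.07 to 0.29).

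The members were then compared within macrophage-like subclusters, since the 2 libraries filled these unequally. Of 6 subclusters, numbered from 0, those led by *Hp* and *Vcan* (subcluster 0, 37 and 1218 cells in the PBS and DTX library) and by *Arg1* and *Cxcl3* (subcluster 3, 8 and 1027 cells) had too few cells in the PBS library to compare. The other 4 were led by *H2-Eb1* and *C1qa* (subcluster 1, 853 and 337 cells), *Ccl7* and *Cbr2* (subcluster 2, 85 and 991 cells), *Hspa1a* and *Ccl8* (subcluster 4, 628 and 280 cells) and *Il1r2* and *Pgf* (subcluster 5, 59 and 743 cells). The median log2 ratio of the members was 0.34 in subcluster 1 (all genes 0.12), 0.09 in subcluster 2 (0.05), 0.72 in subcluster 4 (0.13) and -0.16 in subcluster 5 (0.07). Within the subclusters that held most of the PBS cells the members were thus higher in the DTX library, unlike in the pooled class, where the median was 0.00.

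Within subcluster 1, 28 of 32 members lay above 0, and 15 had an interval wholly above 0 and 3 one wholly below. *Ifit2* (66 and 77 UMIs, 13.9 and 30.8 CPM, log2 ratio 1.10) and *Ifit3* (104 and 115 UMIs, 21.9 and 46.1 CPM, 1.04) were 2-fold higher, where 1.3% of all genes were, and *Cxcl9* alone was 2-fold lower (429 and 34 UMIs, 90.4 and 13.6 CPM, -2.64), where 1.86% were. In the pooled class the ratios of *Ifit2* and *Ifit3* were below 0. In subcluster 4, 27 of 30 members lay above 0, 22 of them with the interval, and 3 had an interval below 0. There 6 were 2-fold higher (2.74% of all genes). These were *Mx1* (18 and 59 UMIs, 7.57 and 39.4 CPM, 2.24), *Cxcl10* (67 and 194 UMIs, 28.2 and 129.7 CPM, 2.16), *Ifit3* (1.54), *Ifit2* (1.45), *Stat2* (1.08) and *Zbp1* (1.03). *Cxcl9* was again the member that was 2-fold lower (61 and 11 UMIs, 25.7 and 7.35 CPM, -1.67), where 2.31% of all genes were. With at most 2000 genes per cell the median of subcluster 4 was 0.15 and not 0.72.

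Subclusters 2 and 5 had under 100 cells in the PBS library and a wider spread over all genes. In subcluster 2, 16 of 28 members lay above 0, 5 had an interval wholly above 0 and 7 one wholly below. There 3 members were 2-fold higher (7.79% of all genes), each on 12 or fewer UMIs in the PBS library, and 4 were 2-fold lower (3.89%), which were *Ifit1* (35 and 156 UMIs, 110.1 and 25.6 CPM, -2.06), *Irf1* (-1.33), *Oasl1* (-1.32) and *Cxcl10* (-1.10). In subcluster 5, 10 of 30 members lay above 0, none with the interval, and 6 had an interval wholly below 0. There 2 were 2-fold higher (6.79%), *Ifit1* from 5 UMIs in the PBS library and *Ifit2* from 0 (51 in the DTX library, at least 1.11-fold higher against a floor of 3 UMIs), and 2 were 2-fold lower (2.22%), *Gbp2* (53 and 160 UMIs, 136 and 26.7 CPM, -2.31) and *Irf1* (30 and 112 UMIs, 77.1 and 18.7 CPM, -1.99). The members leaning to interferon gamma, lower in the pooled class, were not uniformly lower within the subclusters. In subclusters 1 and 4, which held 853 and 628 of the 1670 PBS cells, *Gbp2* (0.19 and 0.02), *Gbp3* (0.26 and 0.48) and *Gbp5* (0.40 and, on under 50 UMIs, 0.68) had log2 ratios above 0 with intervals that included 0. *Irf1* was lower in subcluster 1 (118 and 31 UMIs, 24.9 and 12.4 CPM, -0.95, interval -1.62 to -0.42). It was higher in subcluster 4 (94 and 99 UMIs, 39.6 and 66.2 CPM, 0.73, interval 0.32 to 1.17), and *Cxcl9* was lower in both. Whether the subclusters differed from each other was not tested. Of the *Cxcl9* UMIs in macrophage-like cells, 86.1% of those of the PBS library (429) were in subcluster 1. In the DTX library 61.3% (163) were in subcluster 5, where 1 cell carried 93 of them. The libraries filled these subclusters unequally. In the DTX library 14 of 743 cells of subcluster 5 and 9 of 337 cells of subcluster 1 held a UMI.

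**Figure D2:**
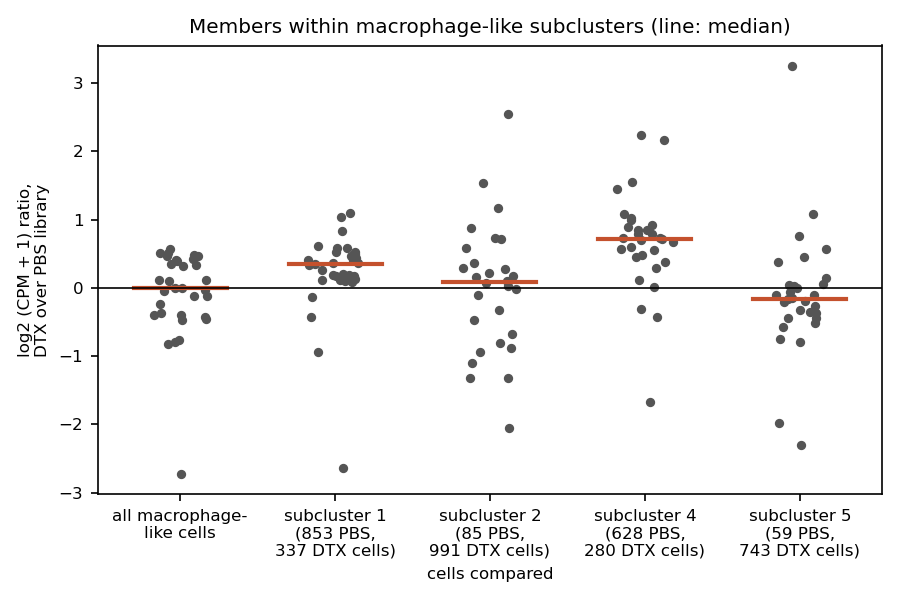
Log2 ratio of the DTX over the PBS library for each member with at least 50 UMIs, as points, in all macrophage-like cells and within the 4 subclusters with enough cells, with a line at the median. The medians are 0.00 for all cells, 0.34, 0.09 and 0.72 for subclusters 1, 2 and 4, and -0.16 for subcluster 5.

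The Ifit genes lie in few cells. Of macrophage-like cells, 89.5% in the PBS library and 90.0% in the DTX library had no UMI of *Ifit1*, *Ifit2* or *Ifit3*. The cells with 5 or more UMIs of the 3 genes together, called Ifit-high, held 56.3% and 66.9% of all Ifit UMIs of the class. They were 31 of 1670 cells (1.86%, 1.26 to 2.62) in the PBS library and 70 of 4596 cells (1.52%, 1.19 to 1.92) in the DTX library. The intervals of these shares overlap, and the threshold is a point in a continuous range, with 10 and 11 cells at 4 UMIs and 9 and 17 cells at 5. Ifit-high cells were deeper, with a median of 5260 UMIs against 4639 in the other macrophage-like cells of the PBS library and of 8218 against 6683 in the DTX library. With every cell thinned to 2000 UMIs, which left out 222 and 135 shallower cells, the Ifit-high shares were 0.76% (0.38 to 1.36) and 0.471% (0.292 to 0.719). At that depth 6.42% (5.21 to 7.81) and 4.62% (4.02 to 5.28) of the cells held any Ifit UMI, with overlapping intervals.

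Over all cells the share of Ifit-high cells did not differ beyond counting error, with 177 of 8326 cells (2.13%, 1.83 to 2.46) in the PBS library and 144 of 7188 cells (2.00%, 1.69 to 2.35) in the DTX library. Fibroblast-like cells made up 70.1% and 21.5% of the Ifit-high cells of the PBS and DTX library, and macrophage-like cells 17.5% and 48.6%. The libraries held these classes unequally. Fibroblast-like cells were 3224 of 8326 and 719 of 7188 of all cells, and macrophage-like cells 1670 of 8326 and 4596 of 7188. Among fibroblast-like cells the share was 124 of 3224 cells (3.85%, 3.21 to 4.57) and 31 of 719 cells (4.31%, 2.95 to 6.06). Dendritic-like cells had 8 of 491 cells (1.63%, 0.706 to 3.19) and 19 of 583 cells (3.26%, 1.97 to 5.04), with overlapping intervals. With clusters built on all variable genes, the members included, these shares were 0.216% and 0.833%. In neutrophil-like cells 0 of 131 and 11 of 568 cells (1.94%, 0.971 to 3.44) were Ifit-high. The share of 0 allows up to 2.29% (3 cells of the total, as for every share of 0 here). The median depth was 1229 and 2066 UMIs, and only 13 cells of the PBS library reached 2000 UMIs. The 11 cells of the DTX library had a median of 7122 UMIs against 2055 in the others, and 2.46% mitochondrial UMIs against 0.965%. Of the 11, 3 (27.3% against 16.7% of the others) were among the top 8% of doublet scores. The epithelial-like class had 9 of 2268 and 2 of 268 Ifit-high cells, the pericyte-like class 1 of 61 and 6 of 126, the endothelial-like class 3 of 81 and 3 of 78, and NK/T-like cells 1 of 236 and 0 of 173. Of the 9 epithelial-like cells of the PBS library, 6 (66.7% against 10.6% of the others) were among the top 8% of doublet scores. No class showed shares whose intervals parted between the libraries, before or after thinning.

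**Figure D3:**
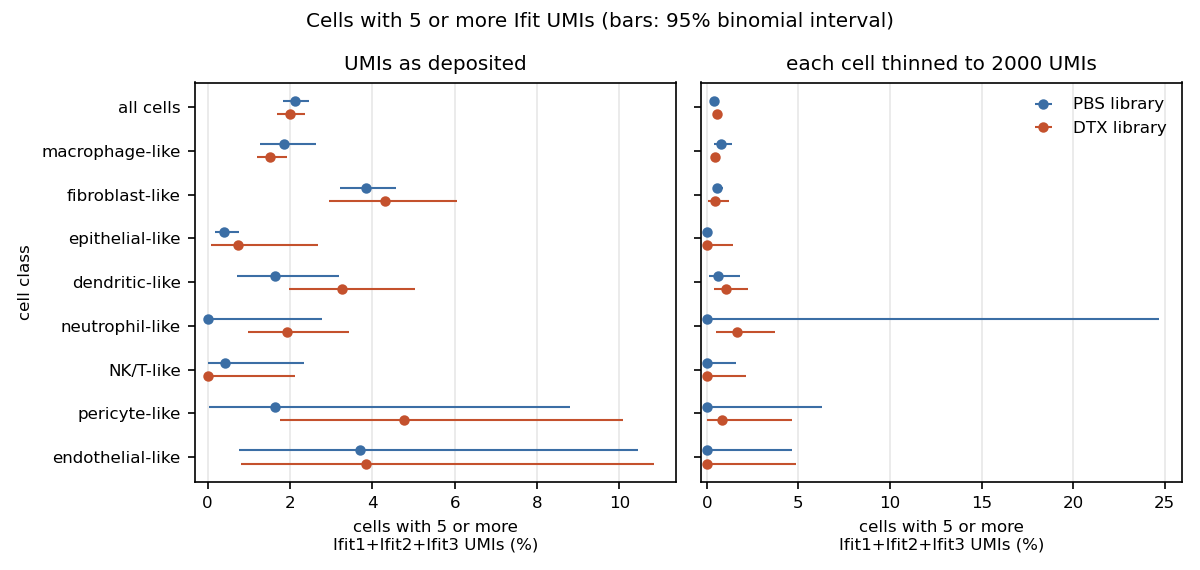
Percent of cells with 5 or more UMIs of *Ifit1*, *Ifit2* and *Ifit3* together, by cell class, for all cells of each class (left) and for cells thinned to 2000 UMIs (right), with bars for the 95% binomial interval. The intervals of the PBS and DTX library overlap in every class, and fibroblast-like cells reach 3.85% and 4.31% before thinning.

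Ifit-high macrophage-like cells carried nearly all other members too. The 3 Ifit genes chose these cells, so their own values are no finding. Most other members are in the study's gene list for its *Ifit1*-positive macrophage subcluster, which was drawn from these same libraries. Their counts here describe that list again and are no independent support. Of the other members with at least 50 UMIs, 27 of 28 in the PBS library and 28 of 29 in the DTX library were 2-fold or more higher in Ifit-high than in other macrophage-like cells, beside 6.73% and 5.35% of all genes. Their median log2 ratios were 2.36 and 2.46 beside -0.12 and -0.14 over all genes. *Rsad2* was at 2474 against 124 CPM in the PBS library and 2740.2 against 82.0 CPM in the DTX library, log2 ratios of 4.31 and 5.05. *Isg15* was at 2462 against 365 CPM in the PBS library and 4215 against 479.5 CPM in the DTX library, ratios of 2.75 and 3.13. *Gbp5* had ratios of 4.35 and 4.74. In the PBS library it was under the minimum, with 16 UMIs in Ifit-high cells and 30 in the others. Of the members that passed in both libraries, *Usp18* (3.38 and 3.94) and *Mx1* (3.63 and 4.17) were among the highest ratios. *Oas1a* (1.33 and 1.22) and *Bst2* (1.09 and 1.44) were among the lowest, and neither is in the study's list. The exception was *Irf1* in the PBS library and *Cxcl9* in the DTX library. *Irf1* was at 42.2 against 32.3 CPM in the PBS library and 52.9 against 18.1 CPM in the DTX library, ratios of 0.37 and 1.49.

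The chemokines differed between the libraries in these cells. *Cxcl10* was at 531 against 28.0 CPM in the PBS library and 1475 against 15.0 CPM in the DTX library, with ratios of 4.19 and 6.52, so that 837 of its 1301 UMIs in macrophage-like cells of the DTX library came from the 70 Ifit-high cells. *Cxcl9* was at 549 against 51.4 CPM in the PBS library and 12.3 against 8.40 CPM in the DTX library, with ratios of 3.39 and 0.50, and the DTX value rests on 7 UMIs. Of genes outside all lists used here, the 10 with the highest ratios in both libraries were *Nt5c3*, *Apobec3*, *Slfn4*, *Klrk1*, *Frmd4a*, *Ccl4*, *AW112010*, *Ifi203*, *Ccnd1* and *Zufsp*. All of them but *Ccl4* are in the study's list for its *Ifit1*-positive macrophage subcluster. The ratios were 2.99 and 3.39 for *Nt5c3*, a nucleotidase gene, 2.57 and 2.47 for *Apobec3*, a cytidine deaminase that restricts retroviruses, and 2.63 and 2.21 for the chemokine *Ccl4*. Among macrophage-like cells with no Ifit UMI, the median of the other members was 0.16 in the DTX over the PBS library, and among Ifit-high cells it was 0.23, beside 0.05 and 0.08 over all genes. Among all macrophage-like cells that were not Ifit-high (1639 and 4526), those with no Ifit UMI included, it was -0.04 beside 0.05. There 14 of 29 members lay above 0.

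**Figure D4:**
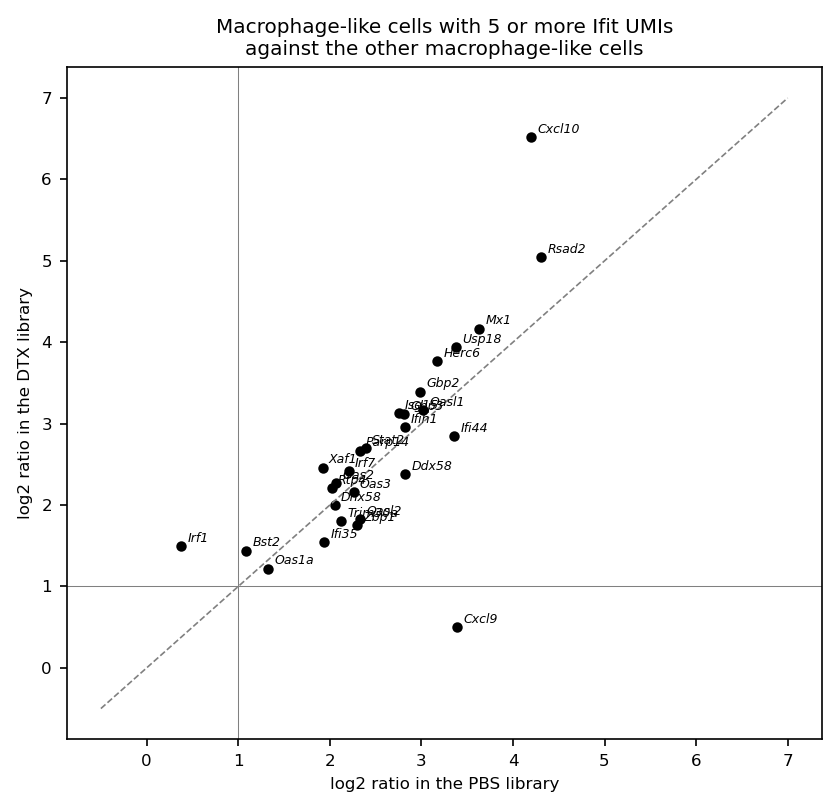
Log2 ratio of Ifit-high over other macrophage-like cells in the PBS library (x axis) and the DTX library (y axis), 1 point per gene. The other members with at least 50 UMIs in each library are shown, which leaves out *Gbp5*. Nearly all lie above 1 on both axes, *Cxcl10* has the highest value in the DTX library (6.52), and *Cxcl9* lies high in the PBS library (3.39) and low in the DTX library (0.50).

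Outside macrophage-like cells most members lay higher in the DTX library in each class compared, as the map of ratios by class shows. The median was near that of all genes in fibroblast-like cells (0.16, all genes 0.12) and NK/T-like cells (0.11, all genes 0.05). Limits of the other classes are given with each below. *Isg15* and *Zbp1* were higher in all 8 classes, with the interval wholly above 0 in each. *Isg15* ranged from a log2 ratio of 0.42 in NK/T-like cells (172 and 220 UMIs) to 1.27 in pericyte-like cells (214 and 1089 UMIs), and *Zbp1* from 0.33 in fibroblast-like cells to 2.07 in pericyte-like cells, where it rests on 6 and 59 UMIs. *Oasl2* was above 0 with its interval in all 7 classes where it had enough UMIs, and *Oas1a* and *Oas3* in all 5. *Bst2* had an interval above 0 in 7 of 8 classes and below 0 in macrophage-like cells. *Irf1* went the other way, with a ratio above 0 only in neutrophil-like cells (1.00, from 5 and 97 UMIs) and an interval below 0 in 4 of 8 classes.

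**Figure D5:**
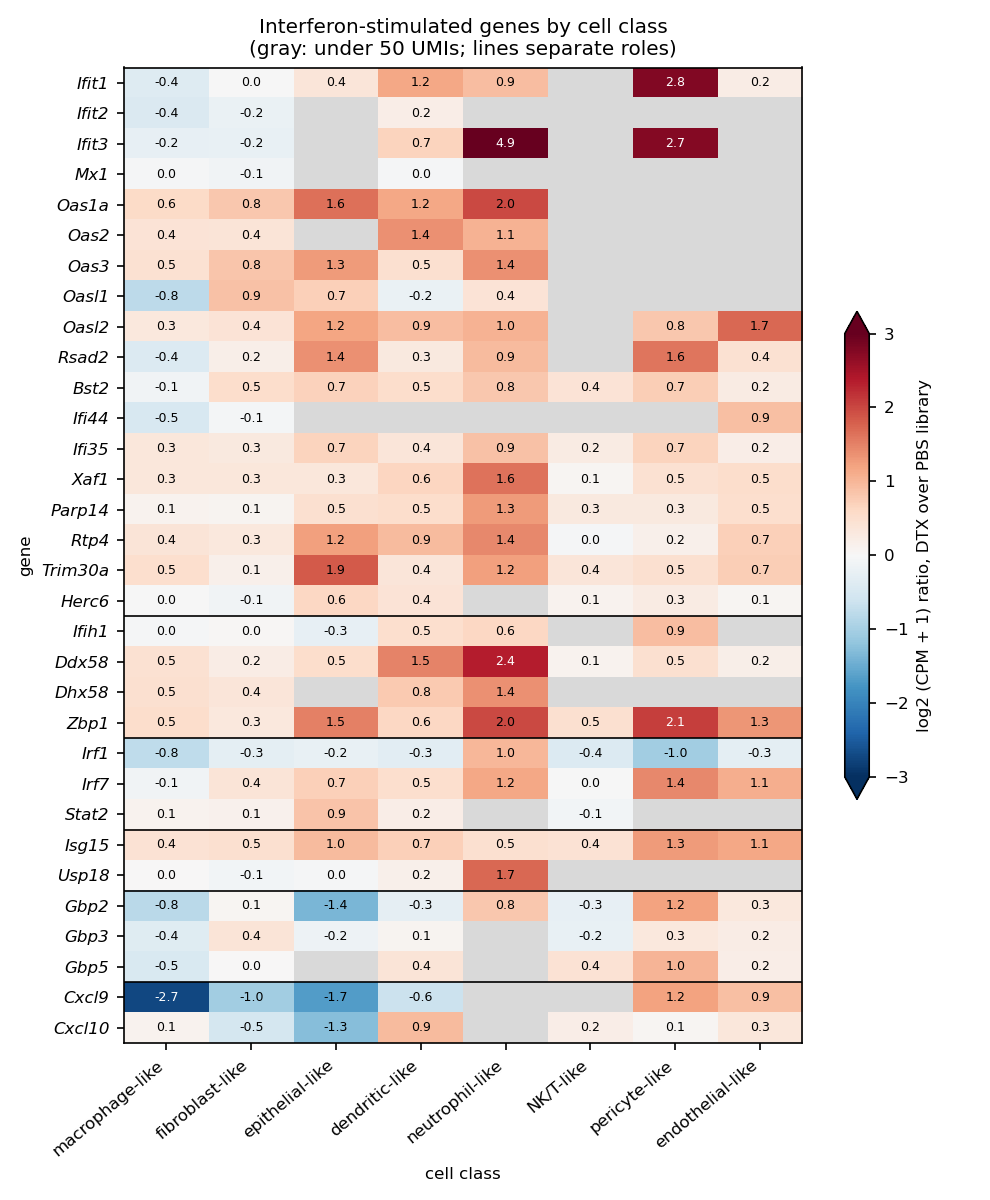
Log2 ratio of the DTX over the PBS library for each member (rows, grouped by role) and cell class (columns), on a color scale, with gray where the member had under 50 UMIs. *Isg15* and *Zbp1* are above 0 in all 8 classes, and *Cxcl9* is below 0 in macrophage-like (-2.73), epithelial-like (-1.67), fibroblast-like (-1.03) and dendritic-like cells (-0.64).

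In dendritic-like cells (491 and 583), 26 of 31 members lay above 0, 20 of them with the interval, and 2 had an interval below 0. The median log2 ratio was 0.50 beside 0.08 over all genes, and 4 members were 2-fold higher, where 1.5% of all genes were, and none was 2-fold lower (1.57%). *Ddx58* was at 43 and 197 UMIs (9.77 and 29.2 CPM), a ratio of 1.49 (1.10 to 2.09). *Oas2* was at 5.45 and 15.7 CPM, with a log2 ratio of 1.37 (0.88 to 2.23). *Ifit1* was at 15.4 and 35.9 CPM, with a log2 ratio of 1.16 (0.82 to 1.63). *Oas1a* was at 103 and 360 UMIs (23.4 and 53.4 CPM), with a log2 ratio of 1.16 (0.87 to 1.52). *Irf1* (log2 ratio -0.32, interval -0.60 to -0.05) and *Cxcl9* were lower. Both dendritic-like clusters gave similar medians, 0.46 and 0.48, and with 10 CPM added in place of 1 none of the 4 reached 2-fold. The summed fibroblast markers were at 578 and 106 CPM, and their part in the ratios was not tested.

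In neutrophil-like cells (131 and 568) all 23 members with enough UMIs lay above 0, 14 of them with the interval, with a median of 1.15 beside 0.02 over all genes. There 15 members were 2-fold higher, where 9.58% of all genes were, and none was 2-fold lower (3.74%). *Rtp4* was at 21 and 540 UMIs (98.3 and 267 CPM), a log2 ratio of 1.43 (0.81 to 2.15). *Trim30a* was at 84.2 and 199 CPM, with a log2 ratio of 1.23 (0.56 to 2.01). *Irf7* was at 84.2 and 188 CPM, with a log2 ratio of 1.15 (0.48 to 1.93). *Rsad2* was at 36 and 657 UMIs (168 and 325 CPM), with a log2 ratio of 0.94 (0.46 to 1.47). *Zbp1* was higher as well (7 and 266 UMIs, 32.8 and 131 CPM, log2 ratio 1.97, interval 0.94 to 3.33). *Ifit3* had 0 and 57 UMIs, so that it was at least 2.01-fold higher against a floor of 3 UMIs in the PBS library. The median with *Ifit3* at this bound was 1.05, and 15 members were still 2-fold higher. The PBS library had few neutrophil-like UMIs, so most members rest on fewer than 20 UMIs there. A minimum of 200 UMIs was reached only by *Oasl2*, *Rsad2*, *Bst2*, *Rtp4*, *Trim30a*, *Zbp1*, *Irf7* and *Isg15*. Of these, 5 were 2-fold higher. The neutrophil marker list was at 37621 and 58839 CPM and the fibroblast list at 1970.0 and 258 CPM, and their part in the ratios was not tested.

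In fibroblast-like cells (3224 and 719) 22 of 32 members lay above 0, 14 of them with the interval, and 3 had an interval below 0. The median was 0.16 beside 0.12 over all genes, none was 2-fold higher (2.28% of all genes) and *Cxcl9* alone was 2-fold lower (1.62%). This was lost with 10 CPM added, with at most 4% mitochondrial UMIs, with clusters built on all variable genes, and without the 1 cell of each library with the most member UMIs. *Bst2* was at 9189 and 3833 UMIs (243 and 354 CPM), a log2 ratio of 0.54 (0.48 to 0.59). *Isg15* was at 134 and 189 CPM, with a log2 ratio of 0.49 (0.42 to 0.57). *Oas1a* was at 7.25 and 13.6 CPM, with a log2 ratio of 0.82 (0.60 to 1.20). *Irf7* was at 56.7 and 74.2 CPM, with a log2 ratio of 0.38 (0.27 to 0.50). The interval of *Ifit1* included 0, with 1754 and 496 UMIs (46.4 and 45.7 CPM) and a log2 ratio of -0.02 (-0.17 to 0.12). So did that of *Gbp2*, with 4268 and 1280 UMIs (113 and 118 CPM) and a log2 ratio of 0.06 (-0.03 to 0.15). *Irf1* was lower (56.9 and 46.6 CPM, log2 ratio -0.28, interval -0.43 to -0.15). The median turned to -0.57 when cells with over 2000 genes were left out.

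In epithelial-like cells (2268 and 268) the members parted more widely. Of 25 members 18 lay above 0, 15 with the interval, and 4 had an interval below 0, with a median of 0.68 beside 0.08 over all genes. There 7 were 2-fold higher (3.13% of all genes). Among them were *Trim30a* (97 and 61 UMIs, 2.99 and 13.4 CPM, log2 ratio 1.85, interval 1.68 to 2.64), *Oas1a* (96 and 52 UMIs, 2.96 and 11.4 CPM, log2 ratio 1.65, interval 1.43 to 2.45) and *Zbp1* (3.94 and 13.2 CPM, log2 ratio 1.52, interval 1.27 to 2.19). The 3 that were 2-fold lower (2.62%) were *Gbp2* (563 and 28 UMIs, 17.3 and 6.14 CPM, log2 ratio -1.36, interval -2.10 to -0.95) and both chemokines. The 7 higher members were at low levels. Without the cells with the top 8% of doublet scores 2 members were 2-fold higher, and with 10 CPM added none was. The median was 0.30 in cluster 3 and 1.00 in cluster 4 of this class, the latter with 87 cells in the DTX library. The macrophage marker list was at 5083 and 5079 CPM and the neutrophil list at 117 and 528 CPM, and their part in the ratios was not tested.

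The vascular classes were small and had few UMIs of most members. In pericyte-like cells (61 and 126) 21 of 22 members lay above 0, 13 with the interval, and the median was 0.77 beside -0.01 over all genes. There 9 were 2-fold higher (2.72% of all genes), and *Irf1* was 2-fold lower (1.82%) with 81 and 82 UMIs (90.6 and 43.6 CPM). *Isg15* was at 214 and 1089 UMIs (239 and 579 CPM), a log2 ratio of 1.27 (1.06 to 1.49). *Gbp2* was at 87 and 423 UMIs (97.3 and 225 CPM), a ratio of 1.20 (0.87 to 1.56). Without the 1 cell of each library with the most member UMIs the median was 0.65. Then 5 of 19 members were 2-fold higher, where 2.99% of all genes were. A minimum of 200 UMIs was reached only by *Bst2*, *Isg15*, *Gbp2* and *Cxcl10*, and 2 of these were 2-fold higher. With at most 4% mitochondrial UMIs 1 member was. *Irf1* was no longer 2-fold lower with 10 CPM added, with each cell weighted equally, or at the minimum of 200 UMIs, which it does not reach. The neutrophil markers summed to 7.83 and 127 CPM in this class, and their part in the ratios was not tested. In endothelial-like cells (81 and 78) 20 of 21 members lay above 0, 11 with the interval, and the median was 0.45 beside -0.04. There 4 were 2-fold higher (2.59%) and none was 2-fold lower (2.54%). With at most 4% mitochondrial UMIs the median was 1.57 and 8 were 2-fold higher. *Oasl2* (21 and 72 UMIs, 18.1 and 62.0 CPM, log2 ratio 1.72, interval 1.06 to 2.56) and *Irf7* (36.1 and 78.3 CPM, log2 ratio 1.10, interval 0.57 to 1.68) were among the 4. Markers of neutrophils were at 0.860 and 814 CPM and those of macrophages at 345 and 1513 CPM in endothelial-like cells, and their part in the ratios was not tested.

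NK/T-like cells (236 and 173) had no member at or past 2-fold, where 1.7% of all genes were higher and 1.54% lower. *Zbp1* (log2 ratio 0.48, interval 0.07 to 0.92), *Isg15* (log2 ratio 0.42, interval 0.13 to 0.72) and *Bst2* (log2 ratio 0.41, interval 0.16 to 0.67) had intervals above 0, and the median of 17 members was 0.11 beside 0.05. With at most 2000 genes per cell the median was 1.24, with only 1 member 2-fold higher. So few members passed there that this median cannot be set beside that of the 17. The fibroblast list summed to 1340.0 and 166 CPM and the epithelial list to 1574 and 264 CPM in this class, and their part in the ratios was not tested. Of classes too small to compare, Langerhans-like cells of the DTX library (47) are named because 1 cell held 714 of their 1022 member UMIs and 107 of their 108 Ifit UMIs.

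The chemokines were followed by class. *Cxcl9* was lower in the DTX library in 4 classes and higher in 2. Beside macrophage-like cells it was lower in fibroblast-like cells (2150 and 296 UMIs, 56.9 and 27.3 CPM, log2 ratio -1.03, interval -1.24 to -0.88). It was lower in epithelial-like cells (387 and 14 UMIs, 11.9 and 3.07 CPM, log2 ratio -1.67, interval -2.84 to -1.19) and in dendritic-like cells (199 and 193 UMIs, 45.2 and 28.6 CPM, log2 ratio -0.64, interval -0.95 to -0.37). Fibroblast-like cells held most of its UMIs in the PBS library. It was higher in pericyte-like cells (32 and 157 UMIs, 35.8 and 83.5 CPM, log2 ratio 1.20, interval 0.67 to 1.82) and in endothelial-like cells (54 and 102 UMIs, 46.4 and 87.8 CPM, log2 ratio 0.91, interval 0.43 to 1.42). In these 1 cell carried 68 of 157 and 42 of 102 UMIs of the DTX library, respectively. The share of fibroblast-like cells with a *Cxcl9* UMI was 7.35% (6.47 to 8.31) and 8.62% (6.68 to 10.9), with overlapping intervals. In dendritic-like cells 1 cell of the DTX library carried 81 of 193 UMIs.

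*Cxcl10* was most abundant by UMIs in fibroblast-like cells, with 9296 and 1833 UMIs (246 and 169 CPM), a log2 ratio of -0.54 (-0.61 to -0.47). It was lower in epithelial-like cells as well (647 and 35 UMIs, 19.9 and 7.68 CPM, log2 ratio -1.27, interval -1.91 to -0.89). It was higher in dendritic-like cells (212 and 632 UMIs, 48.2 and 93.7 CPM, log2 ratio 0.95, interval 0.73 to 1.19) and endothelial-like cells (208 and 263 CPM, log2 ratio 0.34, interval 0.09 to 0.59). In the latter 1 cell carried 176 of 306 UMIs of the DTX library. In pericyte-like cells its interval included 0 (292 and 303 CPM, log2 ratio 0.05, interval -0.16 to 0.27). The receptor gene *Cxcr3* was found mainly in NK/T-like cells, at 37 and 26 UMIs (-0.41, interval -1.22 to 0.33).

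Interferon transcripts themselves were rare. Most UMIs of *Ifng* were in NK/T-like cells, where it was at 245 and 149 UMIs (135 and 86.5 CPM), a log2 ratio of -0.64 (-0.95 to -0.35). A UMI was held by 66 of 236 cells (28.0%, 22.3 to 34.2) and 29 of 173 cells (16.8%, 11.5 to 23.2). In dendritic-like cells, which should lack it, 0 of 491 and 0 of 583 cells held one, which allows up to 0.611% and 0.515%, at a median of 8373 and 10715 UMIs per cell beside 6828 and 8454 in NK/T-like cells. In NK/T-like cells of the DTX library 1 cell carried 46 of the 149 *Ifng* UMIs, and in fibroblast-like cells, with 16 and 40 UMIs, 1 cell carried 36 of the 40. Epithelial-like cells had 18 and 0 UMIs. *Ifnb1* had 7 and 2 UMIs in macrophage-like cells, 7 and 0 in fibroblast-like cells and 0 and 1 in dendritic-like cells. *Ifnk*, a keratinocyte interferon, had 25 and 0 UMIs in epithelial-like cells. This class held 32456414 UMIs in the PBS and 4557285 in the DTX library. A count of 0 allows up to 3 UMIs, and whether *Ifng* and *Ifnk* differ in this class was not tested. *Ifna1*, *Ifna4*, *Ifna5*, *Ifne* and *Ifnl2* had no UMI in either library, and *Ifna2* and *Ifnl3* had 1 each, so differences in these ligands were not detectable at this depth.

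Receptor transcripts were present and slightly higher in macrophage-like cells of the DTX library. Of 6 receptor genes 5 passed, all above 0 and none 2-fold. *Ifnar1*, a chain of the type I receptor, was at 691 and 3743 UMIs (85.5 and 119 CPM), a log2 ratio of 0.47 (0.36 to 0.60). *Ifngr1*, the binding chain for interferon gamma, was at 1219 and 5990 UMIs (151 and 191 CPM), with a log2 ratio of 0.34 (0.25 to 0.43). Their partners *Ifnar2* (log2 ratio 0.16, interval 0.07 to 0.25) and *Ifngr2* (log2 ratio 0.07, interval -0.02 to 0.16) and *Il10rb* (log2 ratio 0.27, interval 0.19 to 0.35), which the lambda receptor shares, had smaller ratios. *Ifnlr1*, the lambda receptor, was mainly epithelial-like, with 231 and 36 UMIs (7.12 and 7.90 CPM).

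Of 7 kinases and transcription factors of the pathway, 6 lay above 0 in macrophage-like cells and none was 2-fold apart. *Irf9* (47.6 and 48.9 CPM, log2 ratio 0.04, interval -0.13 to 0.20), a partner of *Stat2*, had an interval that included 0. *Jak2*, a kinase of the interferon gamma receptor, was higher (log2 ratio 0.44, interval 0.33 to 0.56), and *Irf8*, a factor that works with *Irf1* in macrophages, was lower (162 and 106 CPM, log2 ratio -0.61, interval -0.71 to -0.52). All 4 inhibitors lay above 0, and *Socs3*, a brake on cytokine receptors, was 2-fold higher, where 1.67% of all genes were. It was at 961 and 8056 UMIs (119 and 256 CPM), a log2 ratio of 1.10 (1.01 to 1.21). Of 8 upstream sensors and adaptors with a row 7 passed, 3 above 0 and none 2-fold. *Mavs*, the adaptor of RIG-I and MDA5, was at 5.82 and 3.28 CPM, with a log2 ratio of -0.67 (-1.34 to -0.30).

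A longer list of 79 further interferon-stimulated genes was counted in the same way in macrophage-like cells. Of 73 that passed, 38 lay above 0, with a median log2 ratio of 0.04. Of these 73, 3 were 2-fold higher, where 1.67% of all genes were, and 3 were 2-fold lower, where 3.62% were. The highest ratios were those of *Ifitm1* (46.4 and 693 CPM, 3.87), *Ifitm6* (2.01), *Slfn1* (1.29), *Ms4a4c* (0.87) and *Ifitm3* (0.82), and *Ifitm1* and *Ifitm6* are among the genes that lead subcluster 0, which was nearly all DTX cells. The lowest were *Gbp8* (-1.36), *Ccl5* (91.1 and 38.4 CPM, -1.22), *Iigp1* (4.46 and 1.59 CPM, -1.07), *Serpina3g* (-0.98) and *Ccl12* (-0.88). *Iigp1* and *Gbp8* encode GTPases of the interferon gamma response. In neutrophil-like cells 17 of 48 genes of the list were 2-fold higher (9.58% of all genes) and none was 2-fold lower (3.74%). There too the minimum was met mostly in the DTX library. In dendritic-like cells 6 of 62 were 2-fold higher (1.5% of all genes) and none lower (1.57%). In epithelial-like cells 13 of 51 were higher (3.13%) and 3 lower (2.62%).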

How the data were processed

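Live cells of day 5 wounds were captured with the 10x Genomics 3′ kit (version 3) in 2 libraries, 1 per group, and the samples were grouped by the treatment their labels give. The deposited matrices hold UMI counts as the authors obtained them from Cell Ranger (6.1.1 in the processing notes) on mm10, not normalized. Cells needed 500 genes and could have up to 6% mitochondrial UMIs, as in the authors' own filter. Their upper limit of 2000 genes, which leaves 2522 and 2642 cells, was tried as an alternative.

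Cells were clustered in Seurat 5.3.0 (R 4.3.3) on 2000 variable genes without the members and the pathway lists. This used 30 principal components and a resolution of 0.2 (0.5 for macrophage-like subclusters), and clusters were named from marker lists. Doublet scores came from Scrublet in scanpy 1.11.5. It called 382 and 0 cells, so no cell was removed, and removing the top 8% of scores was an alternative. Counts were summed per class and library in Python 3.11.15 (numpy 2.4.6, pandas 2.3.3, scipy 1.17.1, drawn with matplotlib 3.10.9). Intervals are exact Poisson for levels, exact conditional binomial for ratios and Clopper-Pearson for shares, at 95%, and the limit of a share or level of 0 is that of 3 cells or UMIs. Cells are not replicates and no test was run. The ratios with their intervals were tested on simulated counts. For the thinning only the random draw was checked, not its use gene by gene on the cells. The counts for the ratios were drawn as sums, so neither the summing nor UMIs gathered in few cells was tested.

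All 33 members were named by role. The members, the pathway lists and the 2 subgroups (15 members leaning to type I interferon and 5 to interferon gamma) were chosen with earlier results of these data known. A gene of the pathway lists is not reported here and is in none of the counts of these lists. The minimum of 50 cells per class and the limit of 10 Ifit-high cells for the alternatives were set after the cells were seen. Promoters came from RefSeq and gene positions from GENCODE.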

Additional observations from a re-analysis of the deposited data

Results flagged for a closer look

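*Cxcl9* and *Gbp2* had opposite directions in different cell classes, with intervals on opposite sides of 0. The log2 ratio of *Cxcl9* was 1.20 in pericyte-like cells, from 32 and 157 UMIs, and -2.73 in macrophage-like, -1.03 in fibroblast-like and -1.67 in epithelial-like cells. The pericyte-like value rests on 15 cells of the DTX library with a UMI, 1 of which carried 68 of the 157, and the epithelial-like value on 3 such cells. The log2 ratio of *Gbp2* was 1.20 in pericyte-like cells, from 87 and 423 UMIs, and -1.36 in epithelial-like cells, from 563 and 28 UMIs. With 1 library per group these differences between classes were not tested.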

How the results depend on the processing

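No paired analysis was possible because each group has 1 library, and for the same reason no replicate could be left out. Few cells and UMIs limit the neutrophil-, pericyte- and endothelial-like classes. Of the medians, counts and shares recomputed under the alternatives, 340 values stayed close to those reported and 79 moved. The tally is partly set by the settings. Another Ifit threshold or thinning shifts the Ifit-high shares by design, and counts of 0 that stayed at 0 were tallied as close. Of the ratios of single members in macrophage-like cells 314 stayed, 36 moved and 1 reversed, that of *Irf7*, from -0.12 to 0.016 with at most 4% mitochondrial UMIs. The causes were not tested. Reported values stand in parentheses below. Counts of members under an alternative, here and above, mostly stand without the share of all genes. The number of members that passed can differ too, so a changed count need not be a changed share.

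With 0.1 CPM added, the members 2-fold higher numbered 2 fibroblast-like (for 0). With 10 CPM added, the members 2-fold higher numbered 0 epithelial-like (for 7), 0 dendritic-like (for 4) and 2 endothelial-like (for 4), and the members 2-fold lower numbered 0 fibroblast-like (for 1), 0 epithelial-like (for 3) and 0 pericyte-like (for 1). Under this setting the median of the other members in Ifit-high over other macrophage-like cells of the DTX library was 2.25 (for 2.46). A minimum of 200 UMIs left fewer members to count in these classes. With it, the members 2-fold higher numbered 1 epithelial-like (for 7), 5 neutrophil-like (for 15), 2 pericyte-like (for 9) and 1 endothelial-like (for 4). The members 2-fold lower numbered 0 pericyte-like (for 1). With no minimum, the members 2-fold higher numbered 2 NK/T-like (for 0), 14 pericyte-like (for 9) and 11 endothelial-like (for 4), and the members 2-fold lower numbered 1 neutrophil-like (for 0), 2 NK/T-like (for 0) and 2 pericyte-like (for 1). With each cell weighted equally, the members 2-fold higher numbered 9 neutrophil-like (for 15) and 2 endothelial-like (for 4), and the members 2-fold lower numbered 1 epithelial-like (for 3) and 0 pericyte-like (for 1). Without the top 8% of doublet scores, the members 2-fold higher numbered 2 epithelial-like (for 7) and 2 endothelial-like (for 4). With at most 2000 genes per cell, the members 2-fold higher numbered 6 neutrophil-like (for 15) and 1 NK/T-like (for 0), and the members 2-fold lower numbered 3 macrophage-like (for 1), 5 fibroblast-like (for 1) and 2 dendritic-like (for 0). Under this setting the median in fibroblast-like was -0.57 (for 0.16). Here the median in NK/T-like was 1.24 (for 0.11), on too few members to compare. Under this setting the median of the other members in Ifit-high over other macrophage-like cells of the DTX library was 2.21 (for 2.46). Here the median in subcluster 4 was 0.15 (for 0.72). Under this setting the Ifit-high share was 1.63% PBS (for 2.13%) and 1.10% DTX (for 2.00%) in all cells, 1.01% DTX (for 1.52%) in macrophage-like, 1.87% PBS (for 3.85%) and 0% DTX (for 4.31%) in fibroblast-like, 5.88% DTX (for 3.26%) in dendritic-like. With at most 4% mitochondrial UMIs, the members 2-fold higher numbered 1 fibroblast-like (for 0), 2 epithelial-like (for 7), 1 NK/T-like (for 0), 1 pericyte-like (for 9) and 8 endothelial-like (for 4), and the members 2-fold lower numbered 0 fibroblast-like (for 1). Under this setting the median in endothelial-like was 1.57 (for 0.45). Here the Ifit-high share was 2.57% PBS (for 2.13%) in all cells. With clusters built on all variable genes, the members 2-fold higher numbered 9 neutrophil-like (for 15), and the members 2-fold lower numbered 0 fibroblast-like (for 1) and 1 dendritic-like (for 0). Under this setting the Ifit-high share was 0.216% PBS (for 1.63%) and 0.833% DTX (for 3.26%) in dendritic-like. Without the cell of each library with the most member UMIs (added after seeing the data), 5 of 19 pericyte-like members were 2-fold higher (for 9), beside 2.99% of all genes. Under this setting 0 of 32 fibroblast-like members were 2-fold lower (for 1), beside 1.59% of all genes. With 3 Ifit UMIs as the threshold, the Ifit-high share was 3.42% PBS (for 2.13%) and 3.24% DTX (for 2.00%) in all cells, 3.35% PBS (for 1.86%) and 2.35% DTX (for 1.52%) in macrophage-like, 5.96% PBS (for 3.85%) and 7.37% DTX (for 4.31%) in fibroblast-like, 3.70% DTX (for 1.94%) in neutrophil-like. With 10 Ifit UMIs as the threshold, the Ifit-high share was 0.673% PBS (for 2.13%) and 0.946% DTX (for 2.00%) in all cells, 0.419% PBS (for 1.86%) and 0.718% DTX (for 1.52%) in macrophage-like, 1.33% PBS (for 3.85%) and 1.95% DTX (for 4.31%) in fibroblast-like, 0.407% PBS (for 1.63%) and 1.72% DTX (for 3.26%) in dendritic-like, 0.704% DTX (for 1.94%) in neutrophil-like. With cells thinned to 2000 UMIs, the Ifit-high share was 0.409% PBS (for 2.13%) and 0.548% DTX (for 2.00%) in all cells, 0.760% PBS (for 1.86%) and 0.471% DTX (for 1.52%) in macrophage-like, 0.573% PBS (for 3.85%) and 0.422% DTX (for 4.31%) in fibroblast-like, 0.626% PBS (for 1.63%) and 1.04% DTX (for 3.26%) in dendritic-like.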
